A study of Homo sapiens with 4 samples.

Results

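The 88 genes described here encode the nuclear part of the respiratory chain and ATP synthase, together with a few genes that carry the same symbol stems. They were taken by symbol from 16370 genes listed for 4 human hepatoma cultures: symbols that start with NDUFA, NDUFB, NDUFC, NDUFS, NDUFV, UQCR, COX4, COX5, COX6, COX7, COX8 or ATP5, plus SDHA, SDHB, SDHC, SDHD and CYC1. The rule itself uses symbols and no measured value. The hepatocellular carcinoma (HCC) group was made up of the established lines Hep3B and Huh7. The hepatic cancer stem cell (HCSC) group held their stem-like derivatives, Hep3B-C from Hep3B and Huh7-C from Huh7. Each line was represented by 1 mRNA library, so every fold-change is HCSC over HCC within a parental line, has no replicate, and carries an error that covers counting only. Each pair of libraries listed 87 of the 88 members, because COX4I2 had no row in the Huh7 pair and COX7B2 none in the Hep3B pair.

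The respiratory chain passes electrons from NADH (complex I) and succinate (complex II) through ubiquinone to complex III, then through cytochrome c to complex IV, where oxygen is reduced. Complexes I, III and IV pump protons across the inner mitochondrial membrane, and complex V uses the return flow to make ATP. Complexes I, III, IV and V combine products of nuclear and mitochondrial DNA, whereas complex II is nuclear-encoded throughout. The subunits encoded by mitochondrial DNA could not be analysed, because none of the 26 symbols sought for them was listed in either pair. By their known roles, the members fell into 37 subunits of complex I, 4 of complex II, 9 of complex III, 12 of complex IV and 15 of complex V. The rest included the 4 complex I assembly factors with NDUFAF symbols (NDUFAF1 to NDUFAF4) and 4 isoforms of restricted expression (COX4I2, COX6B2, COX7B2 and NDUFA4L2). The last 3 genes (ATP5S, ATP5SL and COX4NB) share a symbol stem and are not structural subunits. NDUFA4 was counted with complex IV, where its protein resides, and COX7A2L, which joins complexes III and IV, was counted there as well.

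Many genes of the chain share binding sequences for the transcription factors NRF1 and GABP (also called NRF-2) next to their start sites. RefSeq promoters (GRCh38.p14, 250 bases before to 50 after the start) were matched for 73 of the 88 members. An NRF1 core (GCGCATGC, either strand) was present in 13 of them (17.8%), against 4.76% of 12679 promoters of genes in the count files and 3.05% of all 35116 promoters. A GABP core (CCGGAAGT, either strand) was present in 10 (13.7%), against 7.26% and 4.14%. One or both were found in 21 members (28.8%), against 11.5% and 6.91%. The 7 stretches of 30 bases printed here show such a core, in capitals, upstream of at least 1 subunit of each complex and upstream of NDUFA5, which moved against most of its complex.
NDUFS6: ccagaagccgtGCGCATGCgttagcgctaa
NDUFS7: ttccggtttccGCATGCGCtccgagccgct
NDUFA5: gtatgcccatcGCGCATGCgtcaatttttc
SDHD: cagctgtgtttGCGCATGCgcgacgggtgt
UQCRQ: aatggtatctcCCGGAAGTtacctcacgac
COX5B: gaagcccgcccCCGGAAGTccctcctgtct
ATP5H: cccgggaagatACTTCCGGaaccagccctc
The NDUFS6, NDUFS7, NDUFA5 and SDHD stretches hold the NRF1 core and the other 3 the GABP core; NDUFS7 and ATP5H show it as its reverse complement, and in SDHD the letters continue so that both strands match in overlap. On the forward strand they lie at chr5:1801350-1801379 (NDUFS6), chr19:1383823-1383852 (NDUFS7), chr11:112086752-112086781 (SDHD), chr5:132866577-132866606 (UQCRQ) and chr2:97646014-97646043 (COX5B). The reverse-strand stretches lie at chr7:123557958-123557987 (NDUFA5) and chr17:75047053-75047082 (ATP5H). The share with either core was 28.6% among the 28 matched members that rose in Hep3B-C and 28.9% among the 45 others. These matches are descriptions of sequence, and no binding was measured.

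Library totals ran from 2896418 counts (Hep3B) to 4641927 (Hep3B-C), and the members held between 15710 and 67213 of them. At least 20 counts were reached by 80 members in Hep3B and by 84 in each of the other libraries. The 9 hepatocyte lineage markers summed to between 26800 and 62700 CPM (each count divided by its library total and expressed per 1000000), and fibroblast, leukocyte and endothelial markers together to far less, with no list above 213 CPM. Values per library are given below in the order Hep3B, Hep3B-C, Huh7, Huh7-C.

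Summed over complexes, the subunits were more abundant in Hep3B-C than in Hep3B and less abundant in Huh7-C than in Huh7. All 88 genes together made up 0.542%, 1.09%, 1.48% and 1.19% of the counts. Hep3B therefore stood lowest and Huh7 highest, with both HCSC lines between them. The HCSC/HCC ratio of the sum was 2.01 in the Hep3B pair (95% interval 1.97 to 2.04) and 0.803 in the Huh7 pair (0.794 to 0.812). With TMM normalization (a rescaling that centres most genes) these ratios were 2.81 and 0.78. The intervals are those of Poisson counts and leave out variation between cultures.

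Complex I summed to 1847, 4328, 4157 and 3431 CPM, which gave ratios of 2.34 (2.27 to 2.42) in the Hep3B pair and 0.825 (0.808 to 0.843) in the Huh7 pair. Complex II summed to 215.4, 420.5, 549.2 and 461.9 CPM, with ratios of 1.95 (1.78 to 2.14) and 0.841 (0.793 to 0.892). Complex III summed to 777.2, 1470, 1674 and 1395 CPM, with ratios of 1.89 (1.8 to 1.98) and 0.833 (0.806 to 0.862). In each of these Hep3B was the lowest library by a wide margin.
Complex IV summed to 805.8, 1394, 2860 and 1912 CPM, with ratios of 1.73 (1.65 to 1.81) and 0.669 (0.65 to 0.687). Complex V summed to 1665, 3077, 5309 and 4442 CPM, with ratios of 1.85 (1.79 to 1.91) and 0.837 (0.821 to 0.853). The rise in the Hep3B pair was thus steepest for complex I and the decrease in the Huh7 pair steepest for complex IV, in both cases with intervals apart from those of the other complexes. Complex I also had the highest median GC content of the complexes (52.2%), and complex IV the shortest median gene length (526 bases). The sums were not corrected for GC content or gene length.

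**Figure D1:**
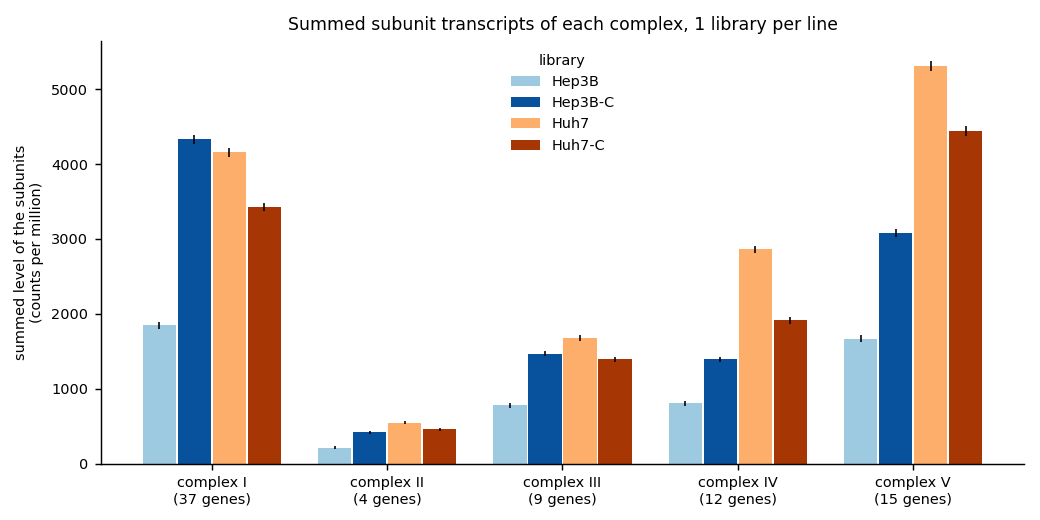
Summed level of the subunits of each complex in CPM (vertical axis) in the 4 libraries (colours); bars are single libraries and error bars are exact 95% Poisson intervals. Hep3B has the lowest bar in every complex, and Huh7-C lies below Huh7 in every complex, most clearly in complex IV (2860 to 1912 CPM).

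Levels between genes are compared per kilobase (RPKM). In complex V the catalytic beta subunit ATP5B was the highest in every library, at 202, 524, 872 and 881 RPKM. In complex IV the highest was COX6A1 in Hep3B (219 RPKM), COX5B in Hep3B-C (494 RPKM) and COX6B1 in both Huh7 lines (1030 and 616 RPKM). The lowest of complex IV was COX7A2L in the Hep3B lines (34.7 and 42.1 RPKM) and COX6C in the Huh7 lines (59.6 and 36.9 RPKM).
In complex I, NDUFB4 led in Hep3B and Huh7 (174 and 312 RPKM), NDUFB9 in Hep3B-C (529 RPKM) and NDUFV2 in Huh7-C (335 RPKM). The lowest of complex I was NDUFB6 in Hep3B (5.21 RPKM) and NDUFA5 in the other libraries (4.73 to 6.25 RPKM). Complex II was led by its iron-sulfur subunit SDHB in 3 libraries (32.9, 164 and 131 RPKM in Hep3B, Huh7 and Huh7-C) and by SDHA in Hep3B-C (103 RPKM), and the membrane anchor SDHD was the lowest in all 4 (13.5 to 19.7 RPKM). In complex III, CYC1 led in the Hep3B lines (105 and 408 RPKM), UQCR10 in Huh7 (300 RPKM) and UQCRC1 in Huh7-C (216 RPKM), while the lowest was UQCRQ in Hep3B (15.5 RPKM) and UQCRB elsewhere (19.5, 48 and 34.9 RPKM). In complex V the lowest was a c subunit, ATP5G1 in Hep3B (19.8 RPKM) and ATP5G3 elsewhere (39.1 to 60.9 RPKM).
Across the 86 members with at least 20 counts in all, the order of RPKM values was closest between Huh7 and Huh7-C (Spearman 0.97), and Hep3B-C was nearer to Huh7-C (0.87) than to Hep3B (0.81). These coefficients describe genes that share gene length and library, and carry no test.

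**Figure D2:**
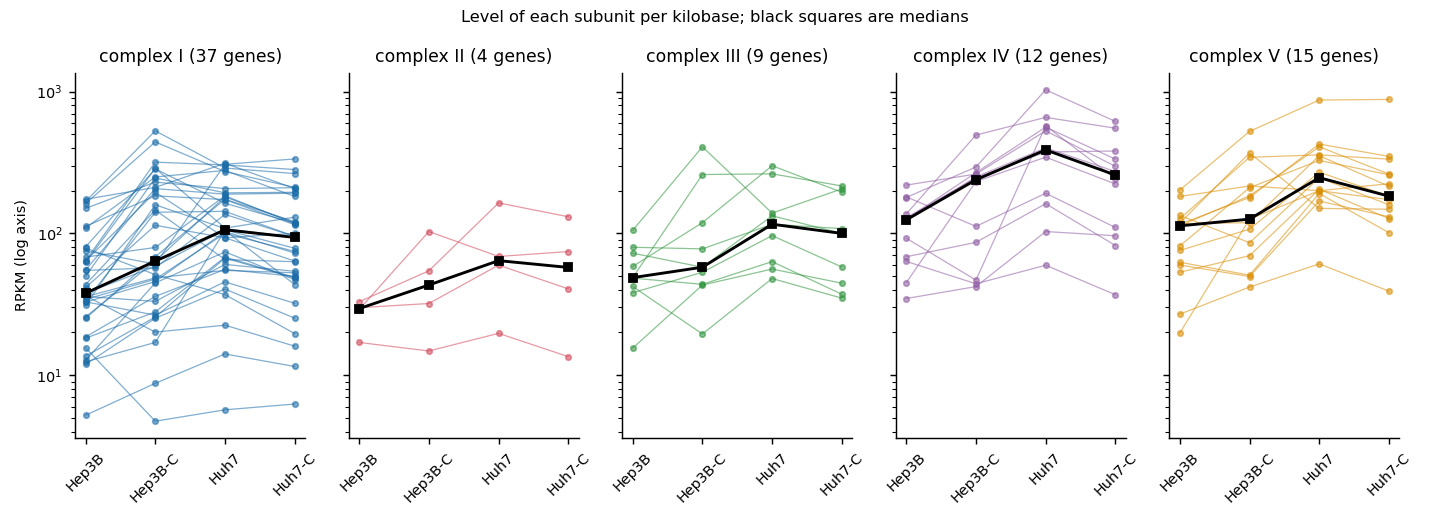
RPKM of each subunit (log axis) in the 4 libraries, 1 panel per complex; thin lines join the values of a gene and black squares are the medians. The medians of all 5 complexes are lowest in Hep3B (37.8 RPKM in complex I) and highest in Huh7 (106 RPKM in complex I).

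The question of each pair was which genes differ between the stem-like line and its parent. A gene is called here when the Audic-Claverie test gave a false discovery rate (FDR) of at most 0.01 over all listed genes and the absolute log2 fold-change was at least 1. In Hep3B-C, 33 of 87 members rose and 2 fell, where 13.2% of all 15480 genes rose and 30.4% fell. Without the fold limit, 48 members were higher and 7 lower beyond counting error, against 19.1% and 37.9% of all genes. The median log2 fold-change of the 84 members with at least 20 counts was 0.71, and that of all genes −0.55. By the same rule, Huh7-C had 0 members called up and 2 called down, where 4.19% and 4.15% of all 14807 genes were called. Without the fold limit, 2 members were higher and 46 lower in Huh7-C, against 15.4% and 12.2% of all genes. Their median was −0.43 with that of all genes at 0.06. The 7 members lower beyond counting error in Hep3B-C and the 46 in Huh7-C rest on counting error alone: with an assumed biological coefficient of variation of 0.1 they were 3 and 7.

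**Figure D3:**
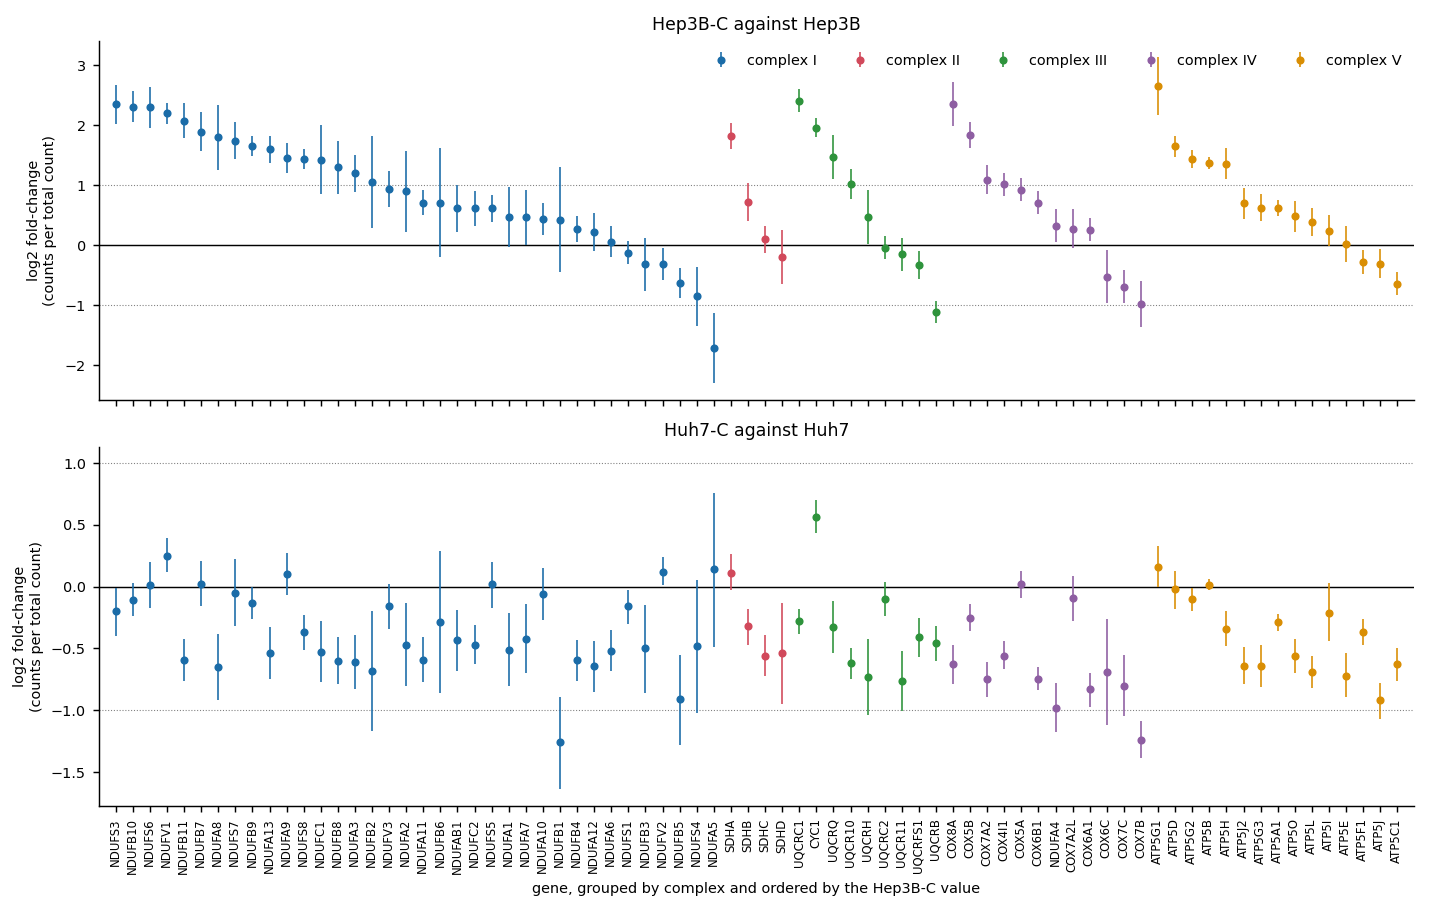
Log2 fold-change of subunits of the 5 complexes (points, with 95% Poisson intervals) in Hep3B-C against Hep3B (top) and Huh7-C against Huh7 (bottom), coloured by complex, with dotted lines at a log2 fold-change of 1 and −1; the vertical scales differ. The Hep3B-C values spread from −1.71 (NDUFA5) to 2.66 (ATP5G1), and the Huh7-C values from −1.26 (NDUFB1) to 0.56 (CYC1).

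The fold-changes of the members went with base composition in the Hep3B pair. The Spearman coefficient between log2 fold-change and transcript GC content was 0.77 across 84 members and 0.63 across 11338 genes. In the Huh7 pair it was 0.29 across 85 members and −0.06 across all genes. The 29 members of lowest GC content (33.2% to 45.8%) had a median of −0.21 in Hep3B-C, with 1 called up and 2 called down. The next 29 (45.9% to 53.7%) had a median of 0.71, with 9 up, and the 28 of highest GC content (53.7% to 69.6%) a median of 1.79, with 23 up.
All genes in the same ranges had medians of −1.46, −0.45 and 0.77, and 1.4%, 10.2% and 40.7% of them were called up. In each range the members' median therefore lay above that of genes of like GC content. The members are also short (median 876 bases, against 2794 over all genes of the pair). Over all genes the Spearman coefficient of fold-change with length was −0.43 in Hep3B-C, though −0.02 across the members. For the Huh7 pair the coefficient with length was 0.32 over all genes and 0.4 across the members. After the trend with length was removed, 13 members were called up and 16 down in Hep3B-C. The member median was then −0.12, and that of all genes −0.47. After the trends with GC content and length were removed, 4 were called up and 8 down. The 4 were NDUFA9, ATP5G1, ATP5G3 and ATP5H, of which ATP5G3 had not been called before. All other members called up in Hep3B-C lost the call. With the length trend alone removed, ATP5G1 had 1.55, while NDUFA9, ATP5G3 and ATP5H had 0.56, 0.53 and 0.24, under the fold limit. With both trends removed NDUFA5 was still called down (−1.26), and the member median was −0.09 with that of all genes at −0.57. The shares of all genes called after these removals are not given here. In the Huh7 pair no member was called after either removal, and the member median was −0.13 with that of all genes at 0.05 after both. Whether GC content and length acted through library preparation was not tested.

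**Figure D4:**
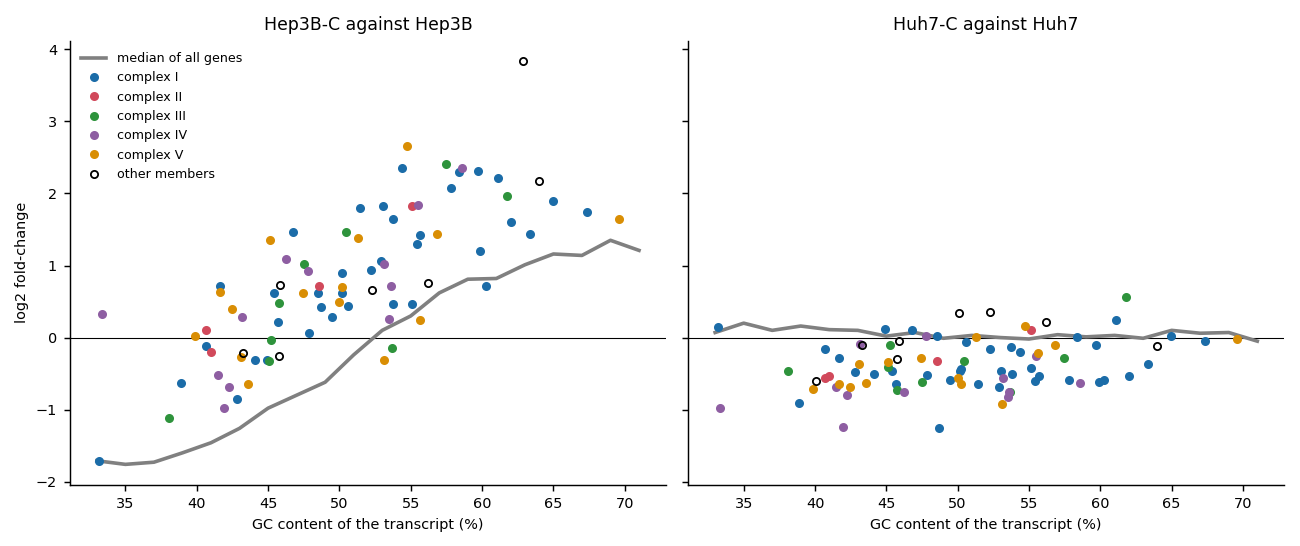
Log2 fold-change of the members with at least 20 counts in the pair against the GC content of their transcripts (%), for Hep3B-C against Hep3B (left) and Huh7-C against Huh7 (right); the grey line is the median of all genes in bins of GC content. On the left the values rise with GC content and 80 of 84 members lie above the line, and on the right 70 of 85 lie below 0.

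In complex I, 17 of 37 subunits rose and 1 fell in Hep3B-C, with a median log2 fold-change of 0.9. Its core subunits carry the flavin and iron-sulfur centres and the ubiquinone site. NDUFV1, the subunit that binds NADH and flavin, stood at 102, 470, 179 and 213 CPM. Its log2 fold-change was 2.21 ± 0.09 (SE) in Hep3B-C and 0.25 ± 0.07 in Huh7-C, 1 of the 2 members higher beyond counting error in Huh7-C. With both trends removed its Hep3B-C value was 0.39. NDUFV2, its partner in the same module, stood at 65.9, 53.2, 269 and 293 CPM. The partners thus parted in Hep3B-C, where NDUFV2 had −0.31 ± 0.14 and was not called. Their GC contents are 61.1% and 44.9%.

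NDUFS7 and NDUFS8, core subunits that carry iron-sulfur clusters, behaved like NDUFV1 in the Hep3B pair. NDUFS7 stood at 34.2, 115, 51.3 and 49.6 CPM, and NDUFS8 at 129, 351, 216 and 168 CPM. Both rose in Hep3B-C, by log2 fold-changes of 1.74 ± 0.16 and 1.44 ± 0.08, and Hep3B-C was the highest of the 4 libraries for each. With both trends removed they had −0.54 and −0.72. NDUFS3, another core subunit, stood at 29.7, 153, 103 and 89.8 CPM and rose by 2.36 ± 0.16, or 0.86 with both trends removed. NDUFS1, the largest core subunit, stood at 123, 113, 207 and 184 CPM and did not change beyond counting error in either pair (−0.12 ± 0.10 and −0.16 ± 0.07).

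Among the 30 accessory subunits of complex I, which surround the core, 12 rose and 1 fell in Hep3B-C. NDUFB10 of the membrane arm stood at 44.5, 221, 212 and 196 CPM, with log2 fold-changes of 2.31 ± 0.13 and −0.11 ± 0.07. NDUFS6, a zinc-binding subunit, stood at 26.6, 132, 103 and 104 CPM, with 2.30 ± 0.17 and 0.01 ± 0.10. With both trends removed NDUFB10 and NDUFS6 had 0.33 and 0.38 in Hep3B-C. For both genes Hep3B alone was low and the other 3 libraries lay close together. NDUFA9 (52.5, 145, 118 and 127 CPM) had the same form, and its log2 fold-change in Hep3B-C was 1.46 ± 0.13. That value was 0.56 with the length trend removed and 1.07 with both trends removed.
NDUFA5, an accessory subunit with a transcript of 33.2% GC, ran the other way. It stood at 24.2, 7.32, 8.82 and 9.69 CPM and fell by 1.71 on the log2 scale in Hep3B-C (SE 0.30), with 0.14 ± 0.32 in Huh7-C. Here Hep3B alone was high. NDUFS4 (24.5, 13.6, 15.2 and 10.8 CPM) had −0.85 ± 0.25 and −0.48 ± 0.27, with no call. In Huh7-C the only complex I subunit called was NDUFB1, a small membrane-arm subunit, at 5.18, 7.11, 43.9 and 18.2 CPM, with −1.26 ± 0.19. NDUFB5 (83.6, 54.1, 39.2 and 20.8 CPM) was lower beyond counting error in both pairs, at −0.63 ± 0.13 and −0.91 ± 0.19, without reaching the fold limit. Its Hep3B-C value lay near the median of all genes there (−0.55) and was −0.14 with TMM.

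The NDUFAF assembly factors of complex I, which help to build the complex and are not part of it, were divided. NDUFAF3 stood at 13.1, 59.9, 117 and 107 CPM and rose by 2.17 ± 0.25 in Hep3B-C, or 0.15 with both trends removed. NDUFAF1, NDUFAF2 and NDUFAF4 had 0.73 ± 0.33, −0.26 ± 0.29 and −0.21 ± 0.28 there, with no call. In Huh7-C all 4 lay between −0.30 and −0.05 with no call. NDUFAF3 has a GC content of 64.0% and the others 43.3% to 45.9%.

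In complex II, which also serves the citric acid cycle, 1 of 4 subunits was called in Hep3B-C. SDHA, the flavoprotein that oxidises succinate, stood at 69.4, 247, 164 and 178 CPM. Its log2 fold-changes were 1.83 ± 0.11 (0.77 with both trends removed) and 0.11 ± 0.07. SDHB stood at 37.6, 62.3, 188 and 150 CPM, with 0.72 ± 0.16 and −0.32 ± 0.08. SDHC and SDHD, the membrane anchors, stood at 85.3, 91.3, 170 and 116 CPM and at 23.1, 20.3, 26.9 and 18.5 CPM. SDHA exceeded its partner SDHB per kilobase in Hep3B-C alone (103 against 54.4 RPKM). SDHC was lower in Huh7-C beyond counting error (−0.56 ± 0.08), and SDHD had −0.54 ± 0.21 with an FDR of 0.027.

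In complex III, 4 of 9 subunits rose and 1 fell in Hep3B-C. UQCRC1 and UQCRC2 are the paired core proteins, and they parted as NDUFV1 and NDUFV2 did. UQCRC1 stood at 78.7, 420, 425 and 350 CPM. It rose by 2.41 ± 0.10 in Hep3B-C, or 0.8 with both trends removed, and had −0.28 ± 0.05 in Huh7-C. UQCRC2 stood at 134, 130, 193 and 181 CPM, with −0.04 ± 0.09 and −0.10 ± 0.07. Hep3B held more UQCRC2 than UQCRC1 per kilobase (79.8 against 48.7 RPKM), and in the other 3 libraries UQCRC1 was the higher. Their GC contents are 57.5% and 45.2%.
CYC1, cytochrome c1, which hands electrons to cytochrome c, stood at 127, 494, 169 and 249 CPM. It was higher in the HCSC line of both pairs, by 1.96 ± 0.08 (called) and 0.56 ± 0.07 (beyond counting error), and had the highest fold-change of all members in Huh7-C. With both trends removed its Hep3B-C value was −0.07 with no call. UQCRFS1, the Rieske iron-sulfur protein, stood at 88.7, 70.7, 162 and 122 CPM, with −0.33 ± 0.12 and −0.41 ± 0.08.
UQCRB, a ubiquinone-binding subunit with the longest gene model among the members (4419 bases), stood at 186, 86.4, 212 and 154 CPM. It fell by 1.11 on the log2 scale in Hep3B-C (SE 0.10) and was lower beyond counting error in Huh7-C (−0.46 ± 0.07), and with both trends removed its Hep3B-C value was 0.11. The hinge protein UQCRH, at 20, 28, 50.7 and 30.5 CPM, had 0.48 ± 0.23 and −0.73 ± 0.16 with no call.

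In complex IV, 4 of 12 subunits rose in Hep3B-C and none fell, and in Huh7-C 10 of 12 were lower beyond counting error, 1 of them past the fold limit. COX5B, a zinc-binding subunit, stood at 69.4, 250, 332 and 279 CPM. Its log2 fold-changes were 1.84 ± 0.11 (0.16 with both trends removed) and −0.25 ± 0.06. COX4I1 and COX5A, the first nuclear subunits to join the complex, stood at 98.7, 200, 322 and 219 CPM and at 99.4, 189, 289 and 293 CPM. COX4I1 rose in Hep3B-C (1.02 ± 0.10) and COX5A had 0.93 ± 0.10, just under the fold limit. The COX4I1 call was lost with the length trend removed (−0.05) and with both trends removed (−0.31). In Huh7-C, COX4I1 had −0.56 ± 0.06 and COX5A 0.02 ± 0.06. COX8A, a small membrane subunit, stood at 22.8, 117, 175 and 113 CPM, with 2.36 ± 0.19 and −0.63 ± 0.08, both beyond counting error and opposite in sign. Its Hep3B-C value was 0.42 with both trends removed.
COX7B, another small membrane subunit, stood at 42.1, 21.3, 262 and 111 CPM. It fell by 1.24 on the log2 scale in Huh7-C (SE 0.08) and was lower in Hep3B-C beyond counting error (−0.98 ± 0.19), just short of the fold limit. COX7C (73.5, 45.7, 78 and 44.8 CPM) was lower in both pairs as well, at −0.69 ± 0.14 and −0.80 ± 0.13. The median of all genes in Hep3B-C was −0.55, and with TMM COX7B and COX7C had −0.50 and −0.20 there. NDUFA4 (56.3, 71.1, 133 and 67.6 CPM) had 0.33 ± 0.14 and −0.98 ± 0.10. COX6B1, the most abundant subunit of complex IV in the Huh7 lines, stood at 99.8, 164, 577 and 344 CPM, with 0.71 ± 0.10 and −0.75 ± 0.05.

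Isoforms that replace a common subunit in particular tissues or conditions had at most 3 counts, apart from COX7B2 in the Huh7 lines and NDUFA4L2 in Hep3B-C. COX4I2, the lung and hypoxia isoform of COX4I1, had 2 counts in Hep3B and 0 in Hep3B-C, and COX6B2, a testis isoform, had 2 or 3 counts in every library. Neither level can be told from 0 at this depth, where 3 counts correspond to 0.646 to 1.04 CPM. COX7B2, the testis counterpart of COX7B, had 67 counts in Huh7 and 42 in Huh7-C (14.8 and 9.69 CPM) and no count in either Hep3B line. Against 3 counts in the Hep3B lines, that is at least 14.3-fold higher in Huh7 than in Hep3B and at least 15-fold higher in Huh7-C than in Hep3B-C. COX7B2 and COX7B transcripts share at most 26 identical bases in a row.
NDUFA4L2, a paralog of NDUFA4 known to be induced by hypoxia, had 1, 34, 2 and 1 counts. It rose in Hep3B-C, with a log2 fold-change of 3.84 and a 95% interval from 1.48 to 6.20 that reflects the single count in Hep3B. COX6B1, COX7A2 and COX7A2L, the ubiquitous forms of their families, had at least 112 counts in every library (COX7A2: 59, 126, 264 and 157 CPM). COX7A2 rose in Hep3B-C (1.09 ± 0.13, or −0.07 with the length trend removed), and COX7A2L had 0.28 ± 0.17.

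In complex V, 5 of 15 subunits rose in Hep3B-C and none fell, while in Huh7-C 10 were lower beyond counting error and none was called. The alpha and beta subunits ATP5A1 and ATP5B form the catalytic head. ATP5B stood at 372, 967, 1610 and 1620 CPM, with 1.38 ± 0.05 in Hep3B-C (0.69 with both trends removed) and 0.01 ± 0.02 in Huh7-C. ATP5A1 stood at 226, 347, 830 and 678 CPM, with 0.62 ± 0.07 and −0.29 ± 0.04. ATP5C1, the gamma subunit of the rotor, stood at 154, 98.5, 283 and 182 CPM and was lower in both pairs (−0.64 ± 0.10 and −0.63 ± 0.07). Its Hep3B-C value lay near the median of all genes there (−0.55), and with TMM the values were −0.16 and −0.67. ATP5D, the delta subunit that sits on gamma, rose in Hep3B-C (117, 368, 150 and 147 CPM, 1.65 ± 0.09), and with both trends removed it had −0.65 with no call. ATP5C1 has a GC content of 43.6% and ATP5D of 69.6%, the highest among the members.
The 3 genes of the c subunit, which forms the proton-driven ring, encode the same mature protein. ATP5G1 stood at 12.8, 81.6, 129 and 145 CPM, ATP5G2 at 148, 401, 417 and 389 CPM, and ATP5G3 at 73.5, 114, 166 and 107 CPM. ATP5G2 was therefore the main source of c subunit transcripts in all 4 libraries. ATP5G1 had the largest fold-change of any subunit in Hep3B-C (2.66 ± 0.25), followed within the family by ATP5G2 (1.44 ± 0.08) and ATP5G3 (0.63 ± 0.12, not called). With both trends removed these were 1.09, −0.31 and 1.28, and with the length trend alone removed 1.55, 0.48 and 0.53. In Huh7-C the order was 0.16 ± 0.08, −0.10 ± 0.05 and −0.64 ± 0.09. Their transcripts share at most 18 identical bases in a row.
The peripheral stalk holds the catalytic head still. Of its 4 members ATP5H rose in Hep3B-C (50.8, 131, 203 and 161 CPM, 1.36 ± 0.13), and ATP5O (61.1, 86, 218 and 148 CPM) had 0.49 ± 0.13. With the length trend removed ATP5H had 0.24 in Hep3B-C, and with both trends removed 1.02. The summed ratio of the stalk was 1.21 in the Hep3B pair and 0.698 in the Huh7 pair. ATP5J, also of the stalk, stood at 81.1, 65.7, 247 and 130 CPM, with −0.31 ± 0.13 and −0.92 ± 0.07, the lowest value of complex V in Huh7-C.

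Of the remaining genes, which share a symbol stem and are not structural subunits, none was called in either pair. In Huh7-C, COX4NB had 0.35 ± 0.18, ATP5S 0.34 ± 0.63 and ATP5SL 0.21 ± 0.15, and 12 of 76 obligate subunits were above 0 as well. In Hep3B-C they had 0.66 ± 0.25, 0.01 ± 0.72 and 0.76 ± 0.15.

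Only 2 members were called in Huh7-C (NDUFB1 and COX7B), and neither was called in Hep3B-C. The difference of the log2 fold-changes was tested for the 86 members listed in both pairs (z test with Poisson errors, FDR at most 0.01 and a difference of at least 1). It was higher in Hep3B-C for 47 members and lower for 1, NDUFA5, against 13.4% and 26.5% of 13917 genes. By complex, 23 of 37 members of complex I, 2 of 4 of complex II, 5 of 9 of complex III, 7 of 12 of complex IV and 9 of 15 of complex V were higher. With the length trend removed, 22 members differed in either direction, and with both trends removed 11. The shares of all genes at these settings are not given here.

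Over both pairs together, edgeR with the parental line as a block called 0 of 84 members, and 0 had an unadjusted p under 0.05, where 0.0257% of 11691 genes were called and 3.18% had such a p. DESeq2 called none of 88 and gave 1 member, CYC1, an unadjusted p of 0.041 (log2 fold-change 1.49, FDR 1.0). The biological coefficient of variation of the edgeR fit was 0.514 with 1 residual degree of freedom. The median log2 fold-change of the members was 0.33, which became 0.04 without the replicate block and ranged from −0.50 to 1.07 when single libraries were left out.

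The contrast between the parental lines shares its libraries with the pairs and is given beside them. Huh7 exceeded Hep3B in 55 of 88 members and was below it in 2 (NDUFA5 and NDUFB5), where 16.3% of all genes were called up and 27.2% down. The median of the members was 1.45, and that of all genes −0.25. Huh7-C exceeded Hep3B-C in 9 of 87 members and was below it in 9, where 17.8% and 12.0% of all genes were called, and the median was 0.25. NDUFV2 (2.46) and COX7B (2.37) were among those higher in Huh7-C, and NDUFA13 (−1.61), ATP5D (−1.32) and NDUFS7 (−1.21) among those lower. The parental lines thus differed in 57 members and the HCSC lines in 18.

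Related gene lists were summarised in the same way. The 77 genes of mitochondrial ribosomal proteins had medians of 0.59 in Hep3B-C (24 called up, 4 down) and −0.14 in Huh7-C (0 up, 1 down). Of the 110 rows of cytosolic ribosomal proteins, 106 were tested in the Hep3B pair and 107 in the Huh7 pair. Their medians, over 89 and 90 rows, were 0.22 (15 up, 15 down) and −0.25 (0 and 0). The 14 genes of the citric acid cycle had 0.84 (6 up, 1 down) and −0.01 (0 and 0). Among these, MDH2 rose in Hep3B-C (1.86) and SUCLG2, a subunit of succinyl-CoA ligase, fell by 1.80 on the log2 scale. The 7 measured carriers and porins had 0.49 and −0.13, and SLC25A5, an ADP/ATP carrier, was the only one called (1.29 in Hep3B-C). The 14 genes of electron carriers and ubiquinone synthesis had −0.15 (2 up, 1 down) and −0.11 (0 and 0). Cytochrome c itself, CYCS, had −0.05 and 0.03.
The 27 measured assembly factors outside the symbol rule had medians of −0.21 (6 up, 6 down) and −0.06 (0 up, 1 down). SCO2 (2.68), SURF1 (2.67) and BCS1L (2.67), which serve complexes IV, IV and III, rose in Hep3B-C, and TTC19 and COX19 fell by 1.88 and 1.21 on the log2 scale. The 12 regulators of respiratory genes had a median of −0.89 in Hep3B-C (1 up, 5 down) and 0.58 in Huh7-C (1 up, 1 down). Their median GC content was 43.5%, and all genes of between 42% and 44% GC had medians of −1.26 and 0.1 in the pairs. GABPA, the DNA-binding part of GABP, stood at 154, 59, 52 and 87 counts and fell by 2.06 on the log2 scale in Hep3B-C, with 0.80 in Huh7-C. NRF1 had 45, 52, 43 and 75 counts, with −0.47 and 0.86 and no call. TFAM, which maintains mitochondrial DNA, fell by 1.06 on the log2 scale in Hep3B-C, and had 0.25 in Huh7-C. POLRMT, the mitochondrial RNA polymerase, rose in Hep3B-C (1.48).
PPARGC1A, a coactivator of NRF1 and GABP, was the single regulator called down in both pairs. It fell by 3.93 on the log2 scale in Hep3B-C, and in Huh7-C, where it had no count, it was at least 40.4-fold lower when set at 3 counts.

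**Figure D5:**
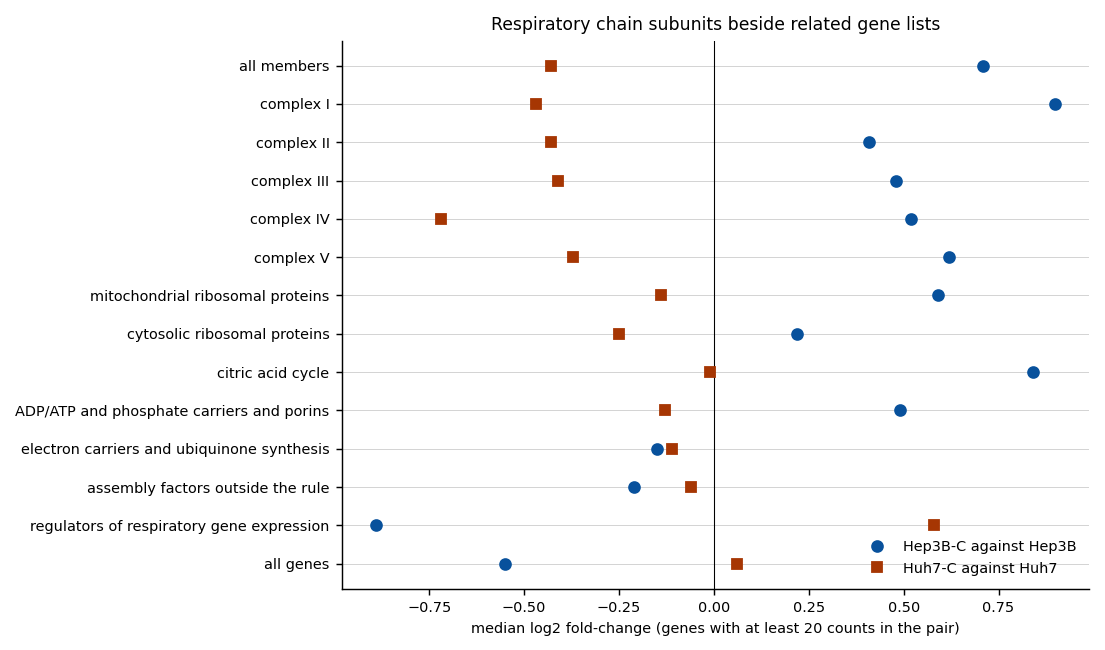
Median log2 fold-change (horizontal axis) of the members, of each complex and of related gene lists, over genes with at least 20 counts in the pair, for Hep3B-C against Hep3B (circles) and Huh7-C against Huh7 (squares). All 5 complexes lie above 0 in Hep3B-C and below 0 in Huh7-C, and the regulators lie at −0.89 and 0.58.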

How the data were processed

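The mRNA libraries were run on a Genome Analyzer II (Illumina). After trimming adapters and discarding poor reads, the authors aligned with NextGENe to an NCBI build older than GRCh38 and deposited whole-number read counts per gene with the gene length. The gene models and the handling of multiply matching reads are not given in the sources used here; GENCODE names 163 pseudogenes after 46 of the 88 members, most for COX6C (17), and reads of such copies could have been assigned to either. Counts were used as deposited, scaled to the total gene count (CPM), or also to gene length (RPKM).

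Members and lists were chosen with earlier results of these data known. Pairs were compared with the Audic-Claverie test (doubled tail, Benjamini-Hochberg adjustment), with 0.5 added to each count for log2 fold-changes and Poisson standard errors. With 1 library per line, no call has a replicate check. All 4 libraries were fitted in edgeR 4.0.16 (quasi-likelihood, TMM, filterByExpr) with the parental line, given by the labels, as a block; DESeq2 1.42.0 was an alternative. Within the Hep3B line the deviations from the group means correlated at 0.522 across genes. Trends were removed by lowess (fraction 0.3; statsmodels 0.14.6), fitted on genes with at least 20 counts in the pair. GC content came from the GENCODE release 29 transcript nearest in length, for 97.9% of genes and all members. Named genes were core subunits, isoform groups, the 5 largest and 5 smallest fold-changes per pair, assembly factors, and the highest and lowest level of each complex; further examples were chosen after their values were seen. One gene is not reported here by name. Tests were checked on simulated counts. Promoters were those of RefSeq (GRCh38.p14), and the count files were made on another build.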

Additional observations from a re-analysis of the deposited data

Results flagged for a closer look

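The change from HCC to HCSC differed between the parental lines by the test of the difference for 47 members in 1 direction (higher in Hep3B-C) and for 1 member, NDUFA5, in the other. The members higher in Hep3B-C included 23 of complex I, 2 of complex II, 5 of complex III, 7 of complex IV and 9 of complex V. The largest differences among members with at least 20 counts were those of COX8A (2.99 on the log2 scale), UQCRC1 (2.69), NDUFB11 (2.67), NDUFS3 (2.56) and ATP5G1 (2.50). With the GC and length trends removed, these genes had 0.42, 0.8, 0.25, 0.86 and 1.09 in Hep3B-C. In Huh7-C they then had −0.21, −0.09, −0.34, 0.08 and 0.54, so none of them kept a difference of at least 1. The test covers counting error, each line had 1 library, and no other pair of libraries bears on these differences.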

How the results depend on the processing

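In Hep3B-C the 33 members called up became 51 with DESeq2 size factors, 13 with the length trend removed, 4 with the GC and length trends removed and 0 with an assumed biological coefficient of variation (BCV) of 0.4. The 2 called down became 1 with TMM, 1 with DESeq2 size factors, 16 and 8 with the length trend or both trends removed, 7 with TMM and the length trend removed (added after the data were seen) and 0 with a BCV of 0.4. The median of 0.71 became 1.19 with TMM, 1.23 with DESeq2 size factors, −0.12 and −0.09 with the length trend or both trends removed, and 0.36 with TMM and the length trend removed. TMM moved the median of all genes by 0.48 in this pair and by −0.04 in the Huh7 pair. With the length trend or both trends removed, the median of all genes in Hep3B-C was −0.47 and −0.57. In Huh7-C the 2 called down became 0 with the length trend removed, with both trends removed, with TMM and the length trend removed, and with a BCV of 0.4, and the median of −0.43 became −0.14, −0.13 and −0.18 under the first 3 of these.

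Without the fold limit (settings added after the data were seen), the 48 higher and 7 lower members of Hep3B-C became 26 and 33 with the length trend removed and 20 and 26 with both removed. The 7 became 2 with TMM and 3 with a BCV of 0.1. The 2 higher and 46 lower members of Huh7-C became 11 and 26, 14 and 25 with these trends removed, and 0 and 7 with a BCV of 0.1. The 48 members that differed between the pairs became 22 with the length trend removed and 11 with both.

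Single members whose sign turned in Hep3B-C, among those called with or without the change, were as follows. With the length trend removed, COX4I1 came to −0.05, COX7A2 to −0.07, UQCR10 to −0.01, NDUFA3 to −0.02, NDUFB2 to −0.10 and ATP5E to −1.15. With both trends removed, COX4I1 came to −0.31, NDUFA3 to −0.84, NDUFB2 to −0.26, NDUFA11 to −1.28, COX6A1 to −1.15, CYC1 to −0.07, NDUFS7 to −0.54, NDUFA7 to −1.17, NDUFB7 to −0.35, NDUFB8 to −0.35, NDUFC1 to −0.29, NDUFS8 to −0.72, NDUFA13 to −0.47, ATP5D to −0.65, ATP5G2 to −0.31, ATP5I to −1.49 and UQCRB to 0.11. The cause was not tested. In Huh7-C none turned among the members called with or without the change. Of 522 values of members under the alternative settings there, 57 changed sign without a call. COX5B went from −0.25 to 0.16 with the length trend removed and 0.18 with both, and ATP5H from −0.34 to 0.02 and 0.04.

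Over both pairs, no alternative called a member; without the replicate block the median of 0.33 was 0.04, and leaving out single libraries gave −0.50 to 1.07, each value resting on 1 complete pair. Hep3B, the library with the lowest total of gene counts, limits the precision of its pair. The paper lists more mRNA reads for Hep3B than for any other line.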
